A study of Sus scrofa with 15 samples.

Results

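The 6 libraries described here are the replicate 3 and replicate 1 libraries of the knockdown table of IPEC-J2 cells, out of 15 libraries in the series. IPEC-J2 is an epithelial cell line from the jejunum of a newborn pig that was not transformed. Each library carries a replicate number in its label, and the comparison is of replicate 3 with replicate 1 within each of 3 lentiviral vectors. Those vectors are Lv133KD, a knockdown vector for miR-133, Lv143KD, and the knockdown control Lv3NC. The label of Lv143KD differs from the design text, which gives miR-133 as the target of that vector too, so its target is unsettled here. All cells of the comparison carry a lentiviral vector, and cells without a vector are not analysed here. The labels do not say what a replicate number marks, nor whether libraries came from separate cultures. The other libraries used are the 3 replicate 2 libraries of the same table and, from the overexpression table, replicates 3 and 1 of OV143 (miR-143 overexpression) and of its control LV20NC.

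Gene expression was deposited as FPKM, fragments per kilobase of gene length scaled to the size of the library. Differences are given on the scale log2(FPKM + 1), on which the change of a gene at low level comes out too small. Of 19000 genes listed, 11583 had at least 1 FPKM in at least 3 of the 6 libraries. FPKM does not keep the read total, so the depth of these libraries is unknown. Their FPKM sums lay between 486086 and 520630, and 11453 to 11557 genes reached 1 FPKM in each. Of 10 epithelial marker genes, 9 had at least 1 FPKM in all 6 libraries. So had 1 of 9 leukocyte, 1 of 9 fibroblast and 2 of the 5 endothelial markers found. The leukocyte gene PTPRC and the fibroblast gene DCN were the only markers of their lists at 0 in all 6. The summed level of the 9 leukocyte markers was 4.73 to 5.79 FPKM in the replicate 3 libraries and 5.82 to 6.33 FPKM in the replicate 1 libraries. That of the 9 fibroblast markers was 3.28 to 6.69 FPKM in replicate 3 and 3.84 to 4.13 FPKM in replicate 1, and that of the 5 endothelial markers found was 11.3 to 13.6 FPKM in replicate 3 and 11.5 to 12.3 FPKM in replicate 1.

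The pair of replicate numbers was selected on these FPKM values. Differences between replicate 3 and replicate 1 in the knockdown table are therefore described without a test. Most named genes are given with FPKM by library or with each vector's own difference, and some with replicate 2 as well. A mean difference is followed by its standard error from a limma fit with the vector as a block, over 3 pairs. That error borrows spread from other genes, so for genes on which the vectors disagree the 3 separate differences say more. Where 3 values follow one another they stand in the order Lv133KD, Lv143KD, Lv3NC.

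Several of the gene groups below are known read-outs of a cell's surroundings and growth. Hypoxia-inducible factors switch on glucose uptake, glycolysis and mitophagy genes when oxygen is short, and NF-kB drives epithelial chemokines and its own inhibitors after inflammatory stimuli. The unfolded protein response raises chaperones of the endoplasmic reticulum when unfolded proteins collect there, and E2F factors drive the genes of DNA replication at entry into S phase. In bulk RNA, fewer cells in a state and less RNA of that state per cell cannot be told apart.

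The size of the difference was unequal among the vectors. Over the 11583 genes the standard deviation of the log2 difference was 0.164 in Lv133KD, 0.35 in Lv143KD and 0.355 in Lv3NC, and the medians were -0.01, -0.065 and -0.073. At least 1.5-fold higher in replicate 3 were 18 genes in Lv133KD (0.155%), 296 in Lv143KD (2.56%) and 326 in Lv3NC (2.81%). At least 1.5-fold lower were 45 genes in Lv133KD (0.389%), 812 in Lv143KD (7.01%) and 768 in Lv3NC (6.63%). Only 2 genes were at least 1.5-fold higher in all 3 vectors (0.0173%) and 9 were at least 1.5-fold lower in all 3 (0.0777%). Without the requirement on Lv133KD those counts were 123 higher (1.06%) and 412 lower (3.56%). At any size, 2070 genes were higher in replicate 3 in all 3 vectors (17.9%) and 3336 were lower (28.8%). Vector by vector, 5463, 4838 and 4788 genes were higher in replicate 3 at any size, and 6065, 6703 and 6776 were lower. All 3 replicate 3 libraries lay above all 3 replicate 1 libraries at 894 genes (7.72%) and below them at 1510 genes (13.0%). The limma fit is of the values that chose the comparison, so its count is a description from which nothing is read: it put 17 genes under an adjusted p of 0.05 (0.147%), 3 of them higher (0.0259%) and 14 lower (0.121%), and that count moved to between 55 and 4133 when 1 vector's pair was left out, with 4133 without Lv133KD.

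The Lv133KD replicate 3 library stood closer to replicate 1 libraries than to the other replicate 3 libraries. Its log2 values differed from those of the Lv133KD replicate 1 library with a standard deviation of 0.16, with 63 genes at least 1.5-fold apart, and from those of the Lv143KD replicate 1 library also with 0.16 and 89 such genes. Against the Lv143KD replicate 3 library the standard deviation was 0.31 with 757 genes, and against the Lv3NC replicate 3 library 0.38 with 1397 genes. The Lv143KD and Lv3NC replicate 3 libraries differed from each other at 93 genes. The 2 knockdown replicate 1 libraries differed at 20 genes. Across genes, none of which is a replicate of another, the differences of Lv143KD and Lv3NC correlated with Pearson's r of 0.72 (Spearman's rho 0.72), those of Lv133KD and Lv143KD with r of 0.39 (rho 0.38), and those of Lv133KD and Lv3NC with r of 0.12 (rho 0.12). Of the 123 and 412 genes at least 1.5-fold higher or lower in both Lv143KD and Lv3NC, 522 were less than 1.5-fold apart in Lv133KD, and at 119 the Lv133KD difference had the opposite sign. Each vector has 1 pair, so a difference between vectors has no test.

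**Figure D1:**
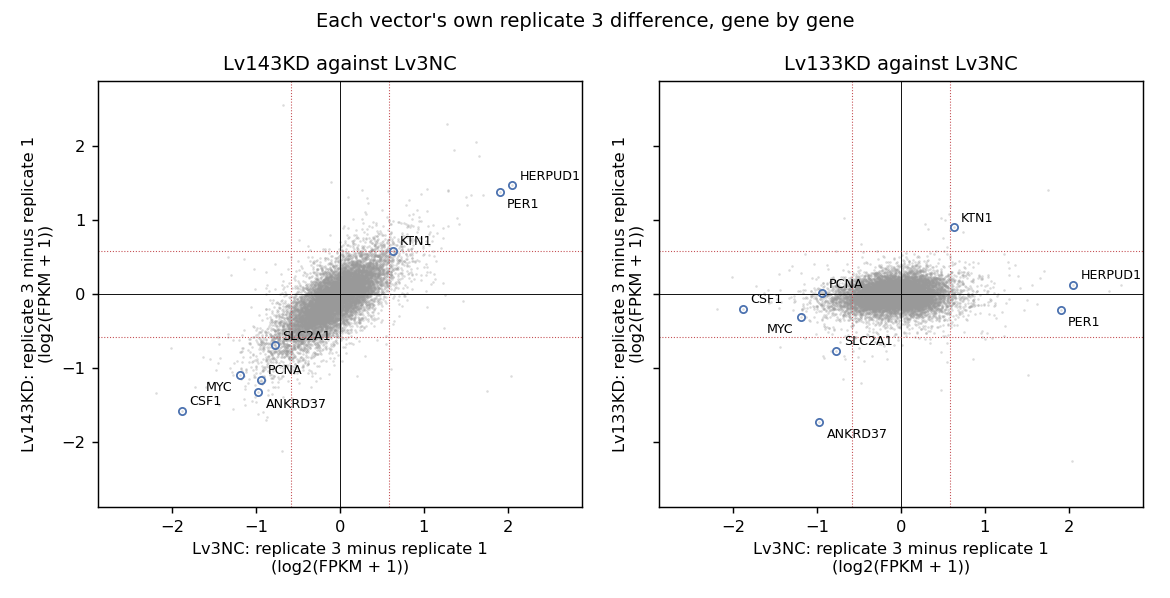
Each grey point is 1 of 11583 genes, placed by its difference between replicate 3 and replicate 1 in Lv3NC (horizontal) and in Lv143KD or Lv133KD (vertical), in log2(FPKM + 1); dotted lines mark 1.5-fold and blue circles named genes. The left cloud runs along the diagonal (r = 0.72), the right one lies flat (r = 0.12), with ANKRD37 and SLC2A1 low in all 3 vectors.

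Genes of the response to low oxygen were lower in replicate 3 with every vector, Lv133KD included. ANKRD37, a hypoxia-induced ankyrin-repeat gene (chromosome 15 from 46445789 to 46450046 in Sscrofa11.1), had 4.97, 7.43 and 8.63 FPKM in the replicate 3 libraries, against 18.7, 20.01 and 17.9 FPKM in replicate 1. Replicate 2 held 33.9, 29.8 and 28.3 FPKM, so the replicate 3 libraries were the lowest of the 9 and Lv133KD the lowest of all. Its mean difference was -1.34 ± 0.14 (SE), or 2.53-fold lower. BNIP3, a mitophagy receptor and hypoxia target (chromosome 14 from 140362123 to 140371951), had 71.1, 51.9 and 53.4 FPKM in replicate 3, against 127, 112 and 102 FPKM in replicate 1 and 120.2, 109 and 128 FPKM in replicate 2, a mean difference of -0.95 ± 0.10. The glucose transporter gene SLC2A1 (chromosome 6 from 168535398 to 168561170) had 62.5, 66.7 and 64.4 FPKM in replicate 3, against 107, 108 and 110.4 FPKM in replicate 1 and 108, 95.3 and 119.9 FPKM in replicate 2. For both genes the 3 replicate 3 libraries lay below the other 6, and SLC2A1 differed by nearly the same amount in each vector, -0.77, -0.69 and -0.77 on the log2 scale.

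EGLN3, a prolyl hydroxylase that acts on hypoxia-inducible factors and is itself their target, had 21.6, 30.98 and 36.9 FPKM in replicate 3, against 50.97, 50.5 and 51.6 FPKM in replicate 1. NDRG1, a stress and hypoxia-inducible gene, had 192, 256 and 268 FPKM in replicate 3, against 361, 344 and 363 FPKM in replicate 1. Both were lowest in the Lv133KD replicate 3 library, with differences of -1.20 and -0.91 in Lv133KD. LDHA, the lactate dehydrogenase subunit of muscle type, showed less, with 905, 662 and 780.2 FPKM in replicate 3, against 987, 979.5 and 896 FPKM in replicate 1. Of the 30 genes of the hypoxia and glycolysis list, all tested, 18 were lower in replicate 3 in all 3 vectors and 0 higher, where 28.8% and 17.9% of all genes were. At 15 of the 30 the replicate 3 libraries lay below replicate 1 without overlap, beside 13.0% of all genes, and 3 (ANKRD37, BNIP3 and SLC2A1) passed 1.5-fold in every vector. The list medians were -0.21, -0.27 and -0.18.

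The coagulation gene F3 stood lower as well. F3, which encodes tissue factor, had 245, 220.3 and 187 FPKM in replicate 3, against 447, 452 and 353 FPKM in replicate 1 and 364, 303 and 511 FPKM in replicate 2. It differed by -0.86, -1.03 and -0.92, nearly evenly, and all 3 replicate 3 libraries lay below the other 6. EDN1, the endothelin precursor, had 5.5, 2.85 and 2.55 FPKM in replicate 3, against 13.4, 15.8 and 4.74 FPKM in replicate 1, and PLET1, an epithelial surface protein gene, had 5.39, 4.66 and 4.34 FPKM in replicate 3, against 10.7, 9.97 and 7.47 FPKM in replicate 1. PLET1 showed no overlap between replicate 3 and replicate 1, and EDN1 overlapped at 1 place, where Lv133KD replicate 3 stood above Lv3NC replicate 1. In replicate 2 EDN1 had 3.75, 4.14 and 6.05 FPKM and PLET1 5.16, 6.54 and 5.83 FPKM. The list of proteases and the plasminogen system, which includes F3, split by vector, with medians of -0.28, -0.11 and 0.13 over 14 tested genes. In Lv133KD 13 of the 14 were lower, where 6065 of all 11583 genes were. Collagenase MMP13 differed by -0.92, -0.57 and 0.55, whereas ADAMTS1 was lower in all 3 vectors, by -0.22, -1.05 and -1.29. PMEPA1, SMAD7 and SMAD6, feedback inhibitors of TGF-beta and BMP signals, differed by -0.33, -0.64 and -0.94, by -0.27, -0.79 and -0.47 and by -0.40, -0.69 and -0.25. Their list of 15 tested genes was not lower as a whole in Lv3NC, where 8 were higher, and 5 were lower in all 3 vectors (all genes 28.8%), with medians of -0.14, -0.34 and 0.003.

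NF-kB targets and inhibitors were lower in replicate 3 in every vector at most members. TNFAIP3, a ubiquitin-editing inhibitor of NF-kB, had 33.8, 21.3 and 24.3 FPKM in replicate 3, against 58.2, 58.3 and 36.5 FPKM in replicate 1. NFKBIA, which encodes the inhibitor that holds NF-kB in the cytoplasm, had 51.8, 49.5 and 60.04 FPKM in replicate 3, against 95.7, 93.9 and 67.3 FPKM in replicate 1. Of 16 tested genes of the NF-kB list, 14 were lower in all 3 vectors (all genes 28.8%) and none higher (all genes 17.9%). At 9 the replicate 3 libraries lay below replicate 1 without overlap (all genes 13.0%). List medians were -0.29, -0.42 and -0.25. In replicate 2 TNFAIP3 had 23.3, 23.7 and 29.3 FPKM, inside the range of replicate 3, so for this gene the replicate 1 libraries were the high ones among the 9.

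Among chemokines and cytokines, CXCL8, a neutrophil attractant, had 44.7, 40.3 and 28.2 FPKM in replicate 3, against 65.1, 86.9 and 58.2 FPKM in replicate 1 and 15.8, 13.8 and 20.7 FPKM in replicate 2. CXCL2, of the same family, had 78.1, 34.6 and 28.6 FPKM in replicate 3, against 112, 112 and 53.2 FPKM in replicate 1, and IL1A, an epithelial alarm cytokine, had 61.9, 29.2 and 23.3 FPKM in replicate 3, against 80.97, 82.4 and 47.6 FPKM in replicate 1. The replicate 3 libraries of CXCL2 and IL1A overlapped replicate 1, because Lv133KD replicate 3 exceeded Lv3NC replicate 1. CSF1, the macrophage growth factor, was near level in Lv133KD (127 FPKM in replicate 3, against 146 in replicate 1). It was far lower in Lv143KD (54.9 against 166) and in Lv3NC (37.7 against 142). The 14 tested genes of this list had medians of -0.30, -0.59 and -0.34, 6 of them lower in all 3 vectors (all genes 28.8%) and none higher (all genes 17.9%), while 6 were higher in Lv3NC. The median of their mean differences was -0.266, and -0.532 without Lv3NC.

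Interferon-stimulated genes were lower in replicate 3 at most members. MX1, an antiviral GTPase (chromosome 13 from 204843049 to 204868927), had 11.4, 8.0 and 7.82 FPKM in replicate 3, against 17.7, 22.99 and 18.5 FPKM in replicate 1 and 12.96, 11.9 and 12.1 FPKM in replicate 2. OAS1, an oligoadenylate synthetase that senses double-stranded RNA (chromosome 14 from 38851083 to 38867427), had 10.9, 9.22 and 9.47 FPKM in replicate 3, against 17.6, 21.6 and 16.3 FPKM in replicate 1 and 9.6, 9.8 and 8.8 FPKM in replicate 2. For both genes replicate 3 was below replicate 1 without overlap, while replicate 2 lay nearer to replicate 3 than to replicate 1. OAS2 had 7.12, 5.27 and 4.79 FPKM in replicate 3, against 10.2, 11.8 and 9.49 FPKM in replicate 1, and RSAD2, at low level, 1.33, 0.8 and 0.9 FPKM in replicate 3, against 1.96, 3.06 and 2.66 FPKM in replicate 1. Of 28 tested genes of the list, 20 were lower in all 3 vectors (all genes 28.8%) and 1 higher, and 15 did not overlap (all genes 13.0%). The medians were -0.19, -0.67 and -0.32, largest in Lv143KD, whose replicate 1 library was the highest of the 9 for MX1 and OAS1. Genes of MHC class I loading did not follow, with medians of -0.19, -0.12 and 0.11 over 18 genes. TAP1, the peptide transporter of that pathway, was higher in Lv143KD and Lv3NC, with 28.99, 46.6 and 50.5 FPKM in replicate 3, against 30.3, 32.7 and 33.4 FPKM in replicate 1.

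**Figure D2:**
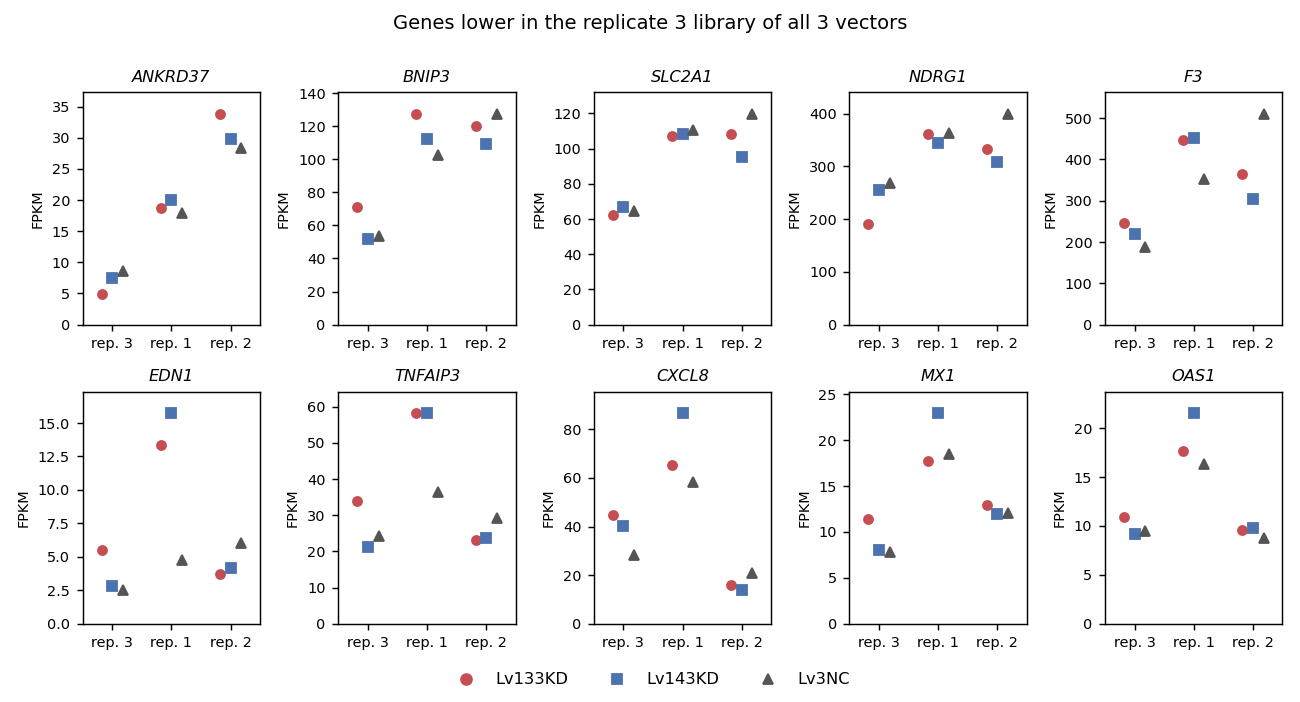
FPKM of 10 genes in the 9 knockdown-table libraries, by replicate number, with 1 symbol per vector and each vertical axis starting at 0. In each panel every vector's replicate 3 library lies below its own replicate 1 library, and for ANKRD37, BNIP3, SLC2A1, NDRG1 and F3 all 3 replicate 3 libraries lie below the other 6.

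Few genes were higher in all 3 vectors. KTN1, which encodes the kinesin-binding membrane protein kinectin (chromosome 1 from 184881555 to 184990936), had 54.9, 62.8 and 59.3 FPKM in replicate 3, against 28.8, 41.5 and 37.99 FPKM in replicate 1, and 58.05, 58.9 and 53.5 FPKM in replicate 2. It was the only gene over 5 FPKM to pass 1.5-fold in every vector, its smallest difference of 0.586 being just inside, while PRSS35 with 0.537 was the next outside. On the lower side MX1 with -0.592 was just inside and LOC100157763 with -0.571 just outside. The other gene to pass was MGP, matrix Gla protein, chosen after its values were seen, at 2.62, 2.8 and 2.28 FPKM in replicate 3, against 1.39, 0.48 and 0.68 FPKM in replicate 1. PRSS35, a protease-like gene, had 17.7, 22.5 and 19.3 FPKM in replicate 3, against 11.9, 11.6 and 7.63 FPKM in replicate 1, and SPP1, which encodes osteopontin, had 636, 838 and 776 FPKM in replicate 3, against 473, 483 and 569.6 FPKM in replicate 1. KLF9, a transcription factor gene, had 6.37, 9.71 and 9.23 FPKM in replicate 3, against 3.91, 4.65 and 6.19 FPKM in replicate 1. At FLT3, a receptor tyrosine kinase gene, the levels were 8.84, 10.7 and 10.2 FPKM in replicate 3 and 5.99, 5.97 and 6.47 FPKM in replicate 1. KLF9, FLT3, SPP1 and PRSS35 showed no overlap between replicate 3 and replicate 1, and SPP1 was higher still in replicate 2, at 941, 1158 and 1130.4 FPKM. ZFC3H1, NEXN, UHRF1BP1L, CCDC88A and RALYL had mean differences from 0.55 to 0.66.

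KTN1 is a long gene, and gene span moved with the difference in Lv133KD and Lv143KD. The 2859 genes with the longest span (median 121 kb) had median differences of 0.047, 0.023 and -0.083 in the 3 vectors, and the 2859 with the shortest (median 5.79 kb) -0.075, -0.132 and -0.025. The part of gene span in the values of KTN1 and of other long genes named above or below, such as CCDC88A, RALYL and GOLGA4, was not tested.

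A second set of genes was apart in Lv143KD and Lv3NC and nearer to level in Lv133KD. Genes of DNA replication led it. PCNA, the sliding clamp of DNA polymerase (chromosome 17 from 14137746 to 14142584), had 60.95 FPKM in replicate 3 of Lv143KD, against 137 in replicate 1, and 54.7 in Lv3NC, against 106. In Lv133KD it had 139 FPKM in replicate 3, against 138 in replicate 1. The replicate 2 libraries held 172, 174 and 157 FPKM, so the 2 low libraries stood apart from the other 7. MCM7 and MCM5, subunits of the replicative helicase, differed by -0.20, -1.59 and -0.92 and by -0.32, -1.70 and -0.88. TK1, the thymidine kinase of S phase, had 30.9, 11.4 and 11.8 FPKM in replicate 3, against 38.5, 34.1 and 26.9 FPKM in replicate 1, and UHRF1, which brings DNA methyltransferase to new DNA, had 9.56, 3.4 and 3.6 FPKM in replicate 3, against 11.5, 10.6 and 8.27 FPKM in replicate 1. Of the 42 genes in the list of DNA replication and the G1/S transition, 21 were at least 1.5-fold lower in both Lv143KD and Lv3NC (all genes 3.56%), none was in Lv133KD, and none was higher at that size in any vector. Its medians were -0.085, -0.86 and -0.62, and 28 of the 42 were lower at any size in all 3 vectors (all genes 28.8%).

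Mitotic genes were higher instead. Of 38 genes of G2/M and mitosis, 34 were higher in replicate 3 in Lv143KD, 37 in Lv3NC and 24 in Lv133KD. Among all 11583 genes those counts were 4838, 4788 and 5463. In all 3 vectors 24 of the 38 were higher (all genes 17.9%), and 13 lay above replicate 1 without overlap (all genes 7.72%). The medians were 0.029, 0.24 and 0.51. HMMR, a spindle protein gene, had 28.1, 40.95 and 49.5 FPKM in replicate 3, against 22.8, 24.6 and 29.1 FPKM in replicate 1, and ECT2, needed for cytokinesis, had 36.8, 49.9 and 52.2 FPKM in replicate 3, against 30.8, 33.8 and 35.9 FPKM in replicate 1. CENPE and KIF20B, mitotic kinesins, differed most in Lv133KD, by 1.19 and 0.84. In replicate 2 CENPE had 9.53, 9.53 and 8.49 FPKM, more than in any of the 6, with 5.65, 5.08 and 4.04 FPKM in replicate 3 and 1.91, 3.74 and 2.37 FPKM in replicate 1.

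Growth and RNA-processing genes followed the replication genes. MYC, the growth-promoting transcription factor gene (chromosome 4 from 12455141 to 12460360), had 174 FPKM in replicate 3 of Lv133KD, against 215 in replicate 1. In Lv143KD it had 103, against 221, and in Lv3NC 77.7, against 179. MYC thus stood lower in all 3 vectors, by -0.30, -1.09 and -1.19, least in Lv133KD. NOP2, an rRNA methyltransferase, differed by -0.22, -1.01 and -1.18, and MYBBP1A, RRP12 and NIP7, of nucleolar rRNA processing, by -0.19, -1.01 and -1.12, by -0.20, -0.78 and -1.18 and by 0.14, -0.73 and -1.15. Of 30 ribosome biogenesis genes 7 were at least 1.5-fold lower in both Lv143KD and Lv3NC (all genes 3.56%) and 17 in Lv3NC (all genes 6.63%), with medians of 0.02, -0.43 and -0.69. POLR1C, a subunit shared by RNA polymerases I and III, had 22.2, 12.2 and 10.6 FPKM in replicate 3, against 22.03, 24.02 and 21.8 FPKM in replicate 1.

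The splicing factor gene SRSF6 (chromosome 17 from 46119612 to 46122540) had 68.6 FPKM in replicate 3 of Lv133KD, 29.02 in that of Lv143KD and 20.6 in that of Lv3NC, against 65.8, 70.7 and 64.1 FPKM in replicate 1. SRSF2 and SRSF3 differed by -0.01, -1.29 and -0.85 and by 0.06, -0.68 and -0.79, whereas CLK1, a kinase of SR proteins, was higher, by 0.27, 0.26 and 0.74. The 22 tested genes of this list had medians of 0.021, -0.35 and -0.34. FLRT3, an adhesion receptor gene, THOP1, a peptidase gene, and PLEKHS1 shared the pattern of SRSF6, with 19.1, 7.4 and 4.59 FPKM in replicate 3, against 17.6, 19.1 and 17.5 FPKM in replicate 1, for FLRT3. The cytosolic ribosomal protein genes did not share it: their medians over 53 genes were -0.10, 0.026 and 0.27. All 53 were higher in Lv3NC and 44 were lower in Lv133KD, each by less than 1.5-fold. Of all 11583 genes, 4788 were higher in Lv3NC and 6065 lower in Lv133KD.

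Growth factor genes of the EGF family and early response genes were lower in part. EREG, an epiregulin precursor, had 85.1, 45.7 and 28.5 FPKM in replicate 3, against 84.1, 83.1 and 90.7 FPKM in replicate 1, and HBEGF had 72.2, 49.9 and 38.2 FPKM in replicate 3, against 81.4, 79.4 and 82.2 FPKM in replicate 1. BTC, another ligand of the family, was higher, with 13.5, 20.7 and 20.4 FPKM in replicate 3, against 11.5, 11.6 and 14.97 FPKM in replicate 1. The 11 genes of this list had medians of -0.022, 0.055 and -0.35. FOSL1 and PHLDA1, induced by MAPK signals, differed by 0.01, -0.56 and -1.16 and by 0.06, -0.67 and -1.44, and the immediate early list by medians of -0.15, 0.051 and 0.059 over 26 genes. PLK2, a stress-regulated polo-like kinase and p53 target, had 212, 105 and 87.9 FPKM in replicate 3, against 222, 215 and 247 FPKM in replicate 1, while the p53 list as a whole had medians of -0.038, 0.063 and -0.12. Here too the 2 low libraries were those of Lv143KD and Lv3NC.

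The keratin genes KRT8, KRT18 and KRT19 were lower in all 3 vectors. KRT8 had 686, 520.0 and 553 FPKM in replicate 3, against 888, 796 and 806 FPKM in replicate 1, and its partner KRT18 had 121, 121 and 124 FPKM in replicate 3, against 158, 148 and 186 FPKM in replicate 1, both without overlap. KRT19 had 467, 239 and 211 FPKM in replicate 3, against 543, 484 and 393 FPKM in replicate 1, with Lv133KD replicate 3 inside the range of replicate 1. Of 15 tested genes of keratins and epithelial adhesion 11 were lower in all 3 vectors (all genes 28.8%) and 2 higher (all genes 17.9%), with medians of -0.19, -0.29 and -0.34. The summed level of the 10 epithelial markers, which include these 3 keratins, was 1775 to 2059 FPKM in replicate 3 and 2323 to 2513 FPKM in replicate 1. That sum weights genes by their level, and not every marker was lower. ESRP1 and CLDN7, also among the 10, differed by 0.03, 0.76 and 0.40 and by -0.03, 0.49 and 0.33. Genes of the actin cytoskeleton had medians of -0.18, -0.26 and -0.14 over 23 genes. Of these, 13 were lower in all 3 vectors (all genes 28.8%) and none higher in all 3. In Lv3NC 14 were lower and 9 higher, where 6776 of all 11583 genes were lower. TAGLN, a smooth muscle actin-binding gene, had 61.4, 76.7 and 98.4 FPKM in replicate 3, against 91.5, 112 and 124 FPKM in replicate 1.

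Genes of the unfolded protein response were higher in replicate 3 at most members in each vector. The counts were 18 of 22 in Lv133KD, 17 in Lv143KD and 19 in Lv3NC. Of all 11583 genes, 5463, 4838 and 4788 were higher. HSPA5, which encodes the chaperone BiP (chromosome 1 from 265930044 to 265934959), had 891 FPKM in replicate 3 of Lv143KD, against 350.3 in replicate 1, and 1309.8 in Lv3NC, against 399.7. In Lv133KD it had 448 FPKM, against 359. The replicate 2 libraries had 236, 250.0 and 198 FPKM, below all 6. HERPUD1, of the pathway that degrades misfolded proteins, had 43.02, 106 and 136 FPKM in replicate 3, against 39.3, 37.5 and 31.9 FPKM in replicate 1 and 20.2, 21.5 and 21.2 FPKM in replicate 2. XBP1 and ATF6, transcription factor genes of the response, had 81.95, 121 and 147 FPKM and 46.05, 81.03 and 76.9 FPKM in replicate 3, against 76.98, 75.5 and 70.3 FPKM and 40.5, 42.3 and 60.2 FPKM in replicate 1. Of the 22 genes of this list 13 were higher in all 3 vectors (all genes 17.9%), none was lower in all 3, and 8 lay above replicate 1 without overlap (all genes 7.72%). The medians were 0.145, 0.135 and 0.298, so that Lv133KD differed here in the same sense as the others, with smaller values for the leading genes.

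Some genes were higher in Lv143KD and Lv3NC and level or lower in Lv133KD; several were named for that pattern, and they stand for no list. TXNIP, a thioredoxin-binding protein gene induced by glucose through MondoA (chromosome 4 from 99348589 to 99351760), had 193, 555 and 707 FPKM in replicate 3, against 204, 223 and 250.0 FPKM in replicate 1 and 50.1, 51.9 and 93.7 FPKM in replicate 2. PER1, a clock gene, had 10.5, 32.6 and 45.05 FPKM in replicate 3, against 12.3, 11.9 and 11.3 FPKM in replicate 1. For both genes Lv133KD replicate 3 was slightly below its own replicate 1 library while the other 2 replicate 3 libraries were more than 2-fold above theirs. NUPR1, a stress-induced chromatin protein gene, had 21.2, 57.96 and 87.9 FPKM in replicate 3, against 22.98, 26.1 and 42.2 FPKM in replicate 1, and BMF, a pro-apoptotic gene, 4.92, 9.82 and 13.7 FPKM in replicate 3, against 5.27, 5.03 and 6.01 FPKM in replicate 1. UBALD2 and PADI3, a peptidylarginine deiminase gene, also had the Lv133KD difference on the other side, at -0.27, 0.93 and 1.05 and -0.07, 1.14 and 0.92. The autophagy genes WIPI1 and GABARAPL1 differed by 0.05, 0.75 and 1.23 and by -0.14, 0.62 and 0.99, and the lysosome and proton pump list by medians of -0.068, 0.10 and 0.22 over 30 genes.

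The amino acid response did not move as a block. ASNS, the asparagine synthetase gene, had 333, 488 and 499 FPKM in replicate 3, against 272, 292 and 445 FPKM in replicate 1, but CHAC1, a glutathione-degrading enzyme gene of the same pathway, was lower, with 155, 71.2 and 49.1 FPKM in replicate 3, against 162, 153 and 120.4 FPKM in replicate 1. TRIB3, a feedback inhibitor of ATF4, differed by 0.02, -0.51 and -0.97. The 28 tested genes had medians of 0.11, 0.45 and 0.023, with 23 higher in Lv143KD and 15 in Lv3NC. Of all 11583 genes, 4838 were higher in Lv143KD and 4788 in Lv3NC. Both replicate numbers stood above replicate 2 for this list: medians of the genes' values, centred on the gene's mean over the 6 libraries, were -0.14, 0.22 and 0.14 in replicate 3, -0.29, -0.20 and 0.19 in replicate 1 and -1.27, -1.27 and -0.89 in replicate 2. Within replicate 1 the Lv3NC library was the highest of its 3. The 12 amino acid transporter genes had medians of 0.08, 0.11 and -0.45, with SLC7A1, a cationic amino acid carrier, at 51.8, 48.9 and 38.8 FPKM in replicate 3, against 50.8, 56.4 and 72.1 FPKM in replicate 1.

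**Figure D3:**
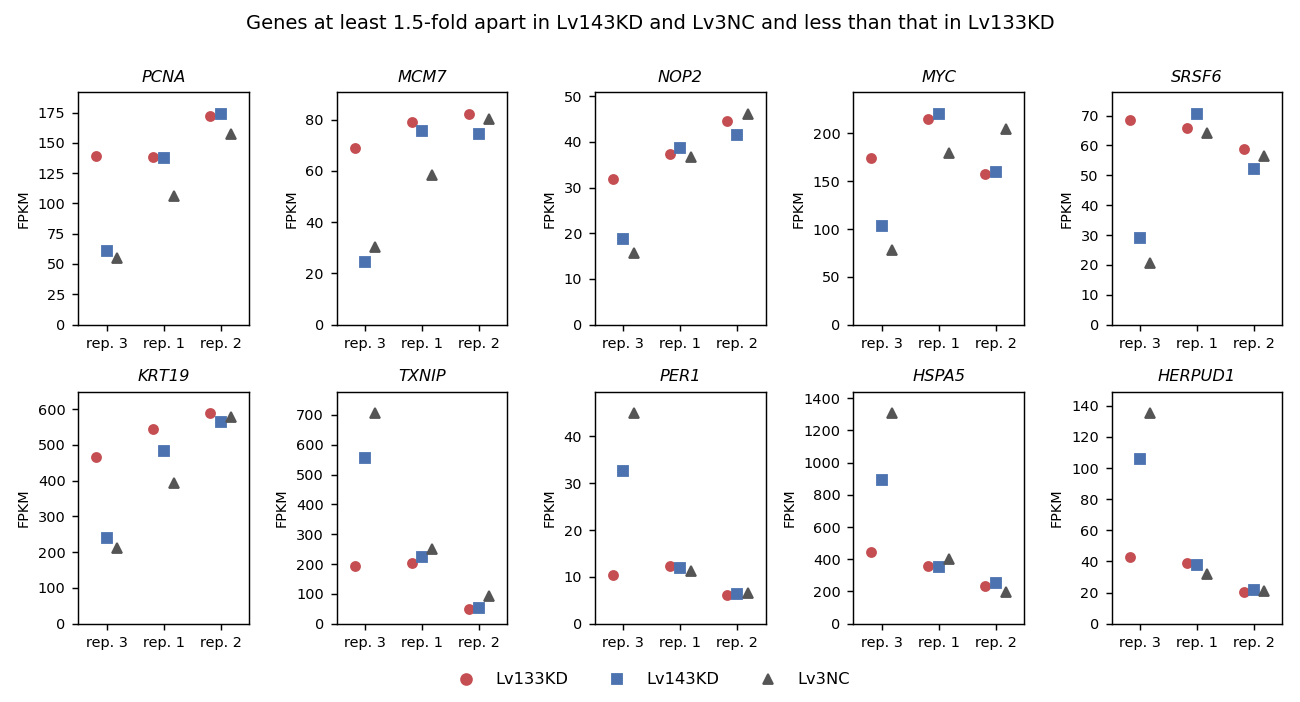
FPKM of 10 genes in the 9 knockdown-table libraries, by replicate number, with 1 symbol per vector and each vertical axis starting at 0. The replicate 3 libraries of Lv143KD and Lv3NC lie below (PCNA to KRT19) or above (TXNIP to HERPUD1) the replicate 1 libraries. The Lv133KD replicate 3 library lies nearer to replicate 1. For NOP2, MYC, HSPA5 and HERPUD1 it lies outside the range of replicate 1, on the same side as those of Lv143KD and Lv3NC.

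Some genes differed most in Lv133KD, with both other vectors under 1.5-fold. Of those named here, LRRCC1 and RBM41 were under 1.5-fold in Lv133KD as well. GOLGA4, a golgin of the trans-Golgi (chromosome 13 from 22125131 to 22250465), had 11.8 FPKM in replicate 3 of Lv133KD, against 5.23 in replicate 1. Across vectors it had 11.8, 11.9 and 10.1 FPKM in replicate 3, against 5.23, 8.96 and 6.94 FPKM in replicate 1, so the low value was that of the Lv133KD replicate 1 library, the lowest of the 9. CCDC88A, an actin-binding protein gene, LRRCC1, of the centrosome, RBM41 and APBB3 also had their lowest replicate 1 level in Lv133KD, with Lv133KD differences of 0.76, 0.57, 0.55 and 0.59. Lower in Lv133KD were MMP13 (-0.92, -0.57 and 0.55), ECM1, an extracellular matrix protein gene (-0.79, 0.20 and 0.47), SDCBP2, a scaffold protein gene (-0.85, -0.48 and -0.51), and UPP1, a uridine phosphorylase gene (-0.77, -0.42 and -0.18). ECM1 had 73.7 FPKM in replicate 3 of Lv133KD, the lowest of the 9 libraries, against 128 in replicate 1. MMP13 and ECM1 were higher in replicate 3 in Lv3NC, so these 2 genes went opposite ways in Lv133KD and Lv3NC.

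**Figure D4:**
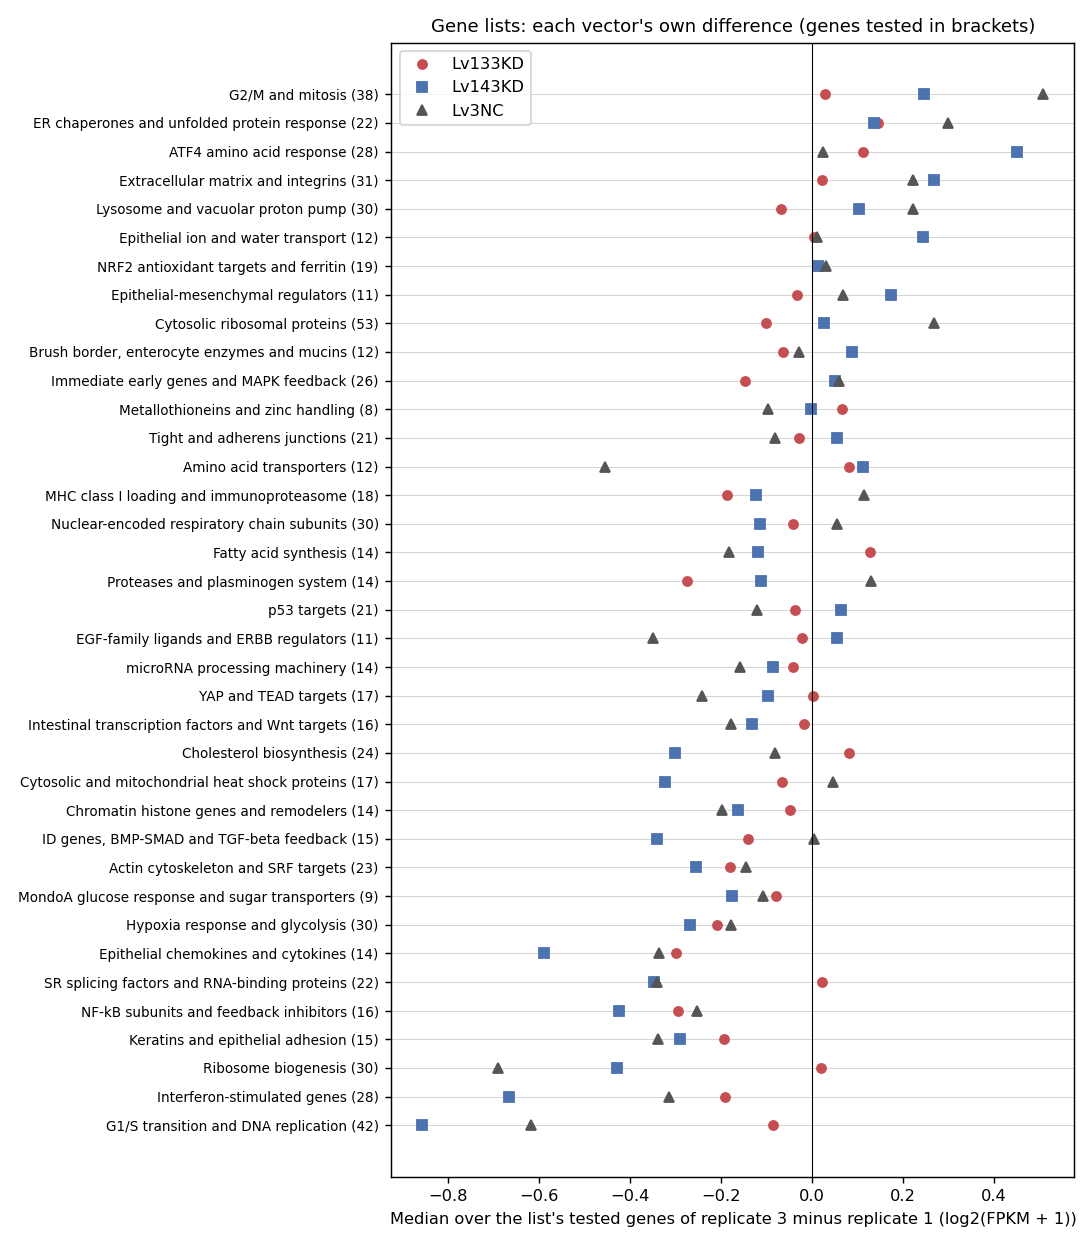
Median over each gene list of the difference between replicate 3 and replicate 1, in log2(FPKM + 1), with 1 symbol per vector and the number of genes tested in brackets. The hypoxia, NF-kB, chemokine, interferon, keratin and actin lists lie below 0 in all 3 vectors, while for G1/S genes, ribosome biogenesis and SR factors the Lv133KD symbol lies near 0, apart from the other 2.

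The overexpression table holds libraries with the same replicate numbers that were not used to choose the comparison, and there the difference was tested. Among 11499 genes, a limma fit of replicate 3 against replicate 1 with the vector as a block called 36 genes (0.313%), 18 higher and 18 lower. The fit had 4 libraries and 1 residual degree of freedom, and its estimate of the spread was the same trend line for all genes, so a gene's own disagreement between OV143 and LV20NC did not enter its p. Without the block, or without the filter on low values, 0 genes were called, and 95 and 602 genes had an unadjusted p under 0.05. Differences were small, with standard deviations of 0.12 in OV143 and 0.17 in LV20NC, and those of OV143 and LV20NC had an r of 0.01 across genes. The labels do not say whether a replicate number marks the same thing in both tables, and the tables were normalised separately.

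Of the genes named above, BNIP3 was called higher in replicate 3 there, by 0.26 in OV143 and 0.45 in LV20NC (limma, adjusted p = 0.0042), the opposite sense to the knockdown table. It had 86.8 and 66.8 FPKM in replicate 3 of OV143 and LV20NC, against 72.5 and 48.7 in replicate 1. LDHA was called higher too (0.10 and 0.33, limma adjusted p = 0.046), and SLC2A1 differed by 0.03 and -0.03 and was not called. CSF1 was called lower, by -0.28 and -0.59 (limma, adjusted p = 1.4e-05), with 60.9 and 125 FPKM in replicate 3, against 74.01 and 188 in replicate 1. Among other list members, the lipid synthesis genes HMGCS1 (0.29 and 0.46), MSMO1 (0.29 and 0.41) and SCD (0.33 and 0.50) were called higher. The ribosomal protein gene RPL34 (0.17 and 0.28) was called higher as well, and the pro-apoptotic p53 target BBC3 (-0.44 and -0.37) lower. The G1/S list, lowest of all in the knockdown table, had medians of 0.012 in OV143 and -0.006 in LV20NC with no gene called. Hypoxia and glycolysis genes had medians of 0.049 and 0.055, and interferon-stimulated genes -0.033 and 0.091. The lists furthest from 0 were the ATF4 amino acid response in LV20NC, at -0.266 against -0.015 in OV143, amino acid transporters (-0.182 and 0.001) and chemokines (-0.18 and -0.114), and on the higher side cholesterol synthesis (0.061 in LV20NC and 0.16 in OV143). All genes had medians of -0.007 in OV143 and -0.016 in LV20NC.

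**Figure D5:**
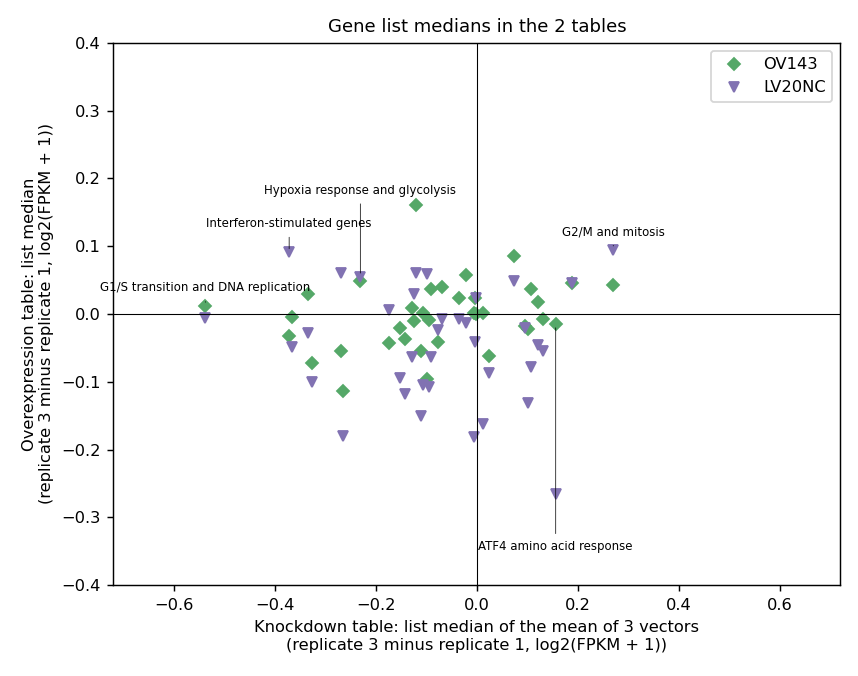
Each list is placed by its median difference between replicate 3 and replicate 1 in the knockdown table (mean of 3 vectors, horizontal) and in the overexpression table (vertical; diamonds OV143, triangles LV20NC), in log2(FPKM + 1). Medians reach -0.54 (G1/S) and 0.27 (G2/M) in the knockdown table, and -0.266 (ATF4 response, LV20NC) and 0.16 (cholesterol synthesis, OV143) in the overexpression table.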

How the data were processed

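RNA sequencing of total RNA from IPEC-J2 cells was deposited by the authors as FPKM per gene, per the file headers. A first table holds the knockdown vectors (9 libraries) and a second the overexpression vectors (6 libraries). The genome build is Sscrofa11.1, per the submitters' processing notes. As for aligner, counter, annotation and strand setting, each is not given in the sources used here. Symbols and 1-based coordinates came from RefSeq's gene table for that build, which held 18618 of the 19000 genes of the knockdown table and 11435 of the 11583 tested. No 2 libraries held identical values. The depth is unknown. The standard error of a mean difference had a median of 0.112 on the log2 scale. The labels do not name separate cultures, and the p-values therefore cover the spread among these libraries only, which can be technical.

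Values were analysed as log2(FPKM + 1). A gene was kept where 3 or more of the 6 knockdown-table libraries reached 1 FPKM. Each vector's own difference is replicate 3 minus replicate 1. The fits used limma 3.58.1 in R 4.3.3 (trended empirical Bayes, vector as block, two-sided, Benjamini-Hochberg adjustment over all genes, threshold 0.05). The overexpression table was fitted in the same way on genes that reached 1 FPKM in 2 or more of 4 libraries. Both fits were also run on simulated data, with noise scaled down from the residual spread and the same shift in every vector. Those data held no disagreement between vectors, so they do not show how the fits behave where vectors disagree. The knockdown-table fit serves as a description. The 37 gene lists hold 769 distinct tested genes.

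The libraries, the gene lists and the tests were chosen with earlier results of these data known, and list medians stand beside those of all genes in place of a test. Named genes have a symbol and a mean of at least 5 FPKM. They are the 10 largest each way by the smallest difference of the 3 vectors. Added to these are the 6 each way apart in Lv143KD and Lv3NC with the opposite sign in Lv133KD. The 5 each way largest in Lv133KD with both other vectors under 1.5-fold follow, and up to 4 members of a list by mean difference. Members of a list are taken without the level minimum. Some genes that this rule takes are not reported here. MGP, LDHA and list members called in the overexpression table were named after their values were seen. The alternatives tried were pseudocounts of 0.1 and 5, no filter, a 5 FPKM filter, median-ratio scaling and equal FPKM sums. Others were a 2-fold threshold, no block, all 9 libraries and a robust variance prior. Left out in turn were each vector in the knockdown table and each library used in the overexpression table.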

Additional observations from a re-analysis of the deposited data

Results flagged for a closer look

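For 2 gene lists the medians of Lv143KD and Lv3NC were both more than 0.2 from 0 and the Lv133KD median lay on the opposite side. Other lists had the opposite sign in Lv133KD with smaller medians. Among them were fatty acid synthesis (0.126, -0.119 and -0.183) and the lysosome and proton pump list (-0.068, 0.102 and 0.222). The ribosome biogenesis list had a median difference between replicate 3 and replicate 1 of 0.02 in Lv133KD, against -0.428 in Lv143KD and -0.689 in Lv3NC. The list of SR splicing factors and RNA-binding proteins had 0.021 in Lv133KD, against -0.347 in Lv143KD and -0.34 in Lv3NC. The median of all genes was -0.01 in Lv133KD, -0.065 in Lv143KD and -0.073 in Lv3NC. Each vector has 1 pair of libraries, so this difference between vectors was not tested.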

How the results depend on the processing

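No paired analysis was possible because a block on the replicate number would remove the comparison, which is between those numbers; the pairs in the fits are libraries of the same vector. Genes at least 1.5-fold higher in replicate 3 in all 3 vectors numbered 2. They numbered 0 with a pseudocount of 5 or a 2-fold threshold and 1 with a 5 FPKM filter. Dropping the requirement on 1 vector, which cannot lower the count, gave 5 to 123, the 123 without Lv133KD. Genes lower numbered 9, and 16 with a pseudocount of 0.1, 5 with one of 5 and 0 at 2-fold. Dropping the requirement on 1 vector, which again cannot lower the count, gave 11 to 412, the 412 without Lv133KD. Genes with the opposite sign in Lv133KD numbered 119, and 216 with a pseudocount of 0.1, 30 with one of 5 and 205 with equal FPKM sums. Genes under 1.5-fold in Lv133KD numbered 522, and 826 and 165 with those pseudocounts. The knockdown-table fit called 17 genes, and 5 with a pseudocount of 0.1, a 5 FPKM filter or equal sums, 0 without a filter, with median-ratio scaling or without the block, 7 with a robust prior (chosen after seeing the data), and 4133, 93 and 55 without the pair of Lv133KD, of Lv143KD and of Lv3NC. The overexpression-table fit called 36, and 0 without a filter or without the block, 10 with a 5 FPKM filter, and 0 to 3 with 1 library left out and no block, where the lone sample of a group is assumed to vary like the others. One list median both changed sign and moved by more than its spread over vectors. It was that of MondoA and sugar transporter genes, from -0.174 to 0.074 with the 5 FPKM filter, which leaves fewer genes. Smaller moves changed the sign of several other list medians. Among these, MHC class I loading went from -0.021 to 0.054 with that filter, and cholesterol synthesis from -0.121 to 0.053 without Lv143KD. Without Lv3NC cytosolic ribosomal proteins went from 0.073 to -0.043, EGF ligands from -0.095 to 0.013 and fatty acid synthesis from -0.069 to 0.019. Other list medians of the mean difference moved by more than their spread over vectors: hypoxia and glycolysis from -0.231 to -0.183 and keratins from -0.335 to -0.206 with a pseudocount of 5, chemokines from -0.266 to -0.444 and microRNA processing from -0.099 to -0.25 with the 5 FPKM filter, NRF2 targets from 0.101 to 0.149 with median-ratio scaling, and MondoA genes to -0.248 and -0.103 with pseudocounts of 0.1 and 5. With 1 vector left out the chemokine median reached -0.532, that of actin genes -0.228, of hypoxia genes -0.17, of junction genes -0.073, of NRF2 targets 0.028 to 0.118 and of MondoA genes -0.239 to -0.098. Over the settings that keep all vectors, 214 list medians stayed within that spread, and of the mean differences of named genes 1010, while 11 moved further. With 1 vector left out, 102 list medians and 516 mean differences stayed within it. In those counts each list or gene enters once per setting. The causes were not tested. Depth is unknown, so no limit from counting can be given.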

Other observations

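Genes of transport, matrix and lipid synthesis varied with the vector. AQP1, a water channel gene, had 12.3, 34.98 and 40.9 FPKM in the replicate 3 libraries of Lv133KD, Lv143KD and Lv3NC, against 10.4, 8.87 and 12.2 FPKM in replicate 1 and 15.6, 15.3 and 21.5 FPKM in replicate 2, so that 2 libraries stood above the other 7. ATP1B1, a subunit gene of the sodium pump, had 279.7, 377 and 328 FPKM in replicate 3, against 234, 239.9 and 239 FPKM in replicate 1, and CFTR, a chloride channel gene, differed by -0.10, -0.57 and -0.71. FN1, which encodes fibronectin, had 1283, 1849 and 1579.6 FPKM in replicate 3, against 1098, 1114 and 1164 FPKM in replicate 1, and COL6A2 4.08, 6.98 and 6.08 FPKM in replicate 3, against 3.95, 3.1 and 3.27 FPKM in replicate 1. Of 31 tested genes of matrix and integrins 12 were higher in all 3 vectors (all genes 17.9%) and none lower (all genes 28.8%), with medians of 0.022, 0.27 and 0.22. MVD, of cholesterol synthesis, differed by -0.04, -0.92 and -0.76, near 0 in Lv133KD, and the list had medians of 0.081, -0.30 and -0.081. Fatty acid synthesis genes had medians of 0.13, -0.12 and -0.18. DNMT1, the maintenance DNA methyltransferase gene, had 31.5, 16.03 and 16.01 FPKM in replicate 3, against 33.3, 33.2 and 33.1 FPKM in replicate 1, and the list of histone genes and remodelers had medians of -0.048, -0.16 and -0.20.

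DROSHA, DGCR8 and DICER1, which process microRNAs, were lower in Lv143KD and Lv3NC. DROSHA and DGCR8, of the complex that cuts primary transcripts, had 9.18, 5.51 and 4.3 FPKM and 12.03, 7.78 and 6.43 FPKM in replicate 3, against 8.69, 8.94 and 7.15 FPKM and 12.9, 13.4 and 12.5 FPKM in replicate 1, and DICER1 had 10.9, 7.01 and 5.83 FPKM in replicate 3, against 10.04, 10.3 and 9.64 FPKM in replicate 1. In Lv133KD the 3 genes differed by 0.07, -0.09 and 0.11. The list of 14 genes had medians of -0.041, -0.085 and -0.16, with 5 higher in Lv143KD and 3 in Lv3NC. Of all 11583 genes, 4838 were higher in Lv143KD and 4788 in Lv3NC. SOX9, a crypt transcription factor gene, had 3.15, 2.4 and 3.59 FPKM in replicate 3, against 5.37, 5.37 and 5.39 FPKM in replicate 1, without overlap, and KLF5 differed by -0.01, -0.61 and -1.07. The list of intestinal transcription factors and Wnt targets had medians of -0.017, -0.13 and -0.18, brush border and mucin genes -0.065, 0.087 and -0.029, and junction genes -0.028, 0.054 and -0.082. Heat shock protein genes had medians of -0.067, -0.32 and 0.045, respiratory chain subunits -0.042, -0.12 and 0.055, NRF2 targets 0.014, 0.012 and 0.031, and metallothioneins and zinc carriers 0.065, -0.002 and -0.098. MondoA targets and sugar transporters had -0.08, -0.17 and -0.11, YAP targets 0.001, -0.097 and -0.24, BMP and TGF-beta feedback genes -0.14, -0.34 and 0.003, and epithelial-mesenchymal regulators -0.034, 0.17 and 0.067. The lists of EGF ligands and of zinc handling, at 11 and 8 tested genes, rest on few members.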
